A study of Homo sapiens with 12 samples.

Results

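Genes of the vacuolar proton pump (V-ATPase), the cathepsins and 3 further lysosomal genes were followed in samples labelled as a prostate cancer line and treated with a Wee1 inhibitor, an Hsp90 inhibitor or both. Members were all genes whose symbol begins with ATP6V0, ATP6V1 or ATP6AP, all those made of CTS and 1 letter, and LAMP1, LAMP2 and TFEB, which gave 43 of the 19775 genes measured. They comprised 8 protein-coding genes of the V0 sector, 12 of the V1 sector, 4 accessory genes, 15 cathepsins, LAMP1, LAMP2, TFEB and the antisense RNA ATP6V0E2-AS1. Among the accessory genes RefSeq lists ATP6AP1-DT as a long non-coding RNA and ATP6AP1L as a transcribed pseudogene. Of 42 protein-coding genes that fit the rule in RefSeq, 2 were not measured. ATP6V0A4 is not analysed here, and ATP6V1F has only a probe set that also names another gene.

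The samples are labelled PC3, an established line of human prostate cancer cells, and form 4 groups with 3 arrays each. The first group received both drugs, that is Wee1 inhibitor II at 2.5 µM and, 24 h later, 17-AAG at 40 nM. The others received Wee1 inhibitor II alone, 17-AAG alone, or neither; the labels call this last group untreated and the protocol gives it vehicle. RNA was taken 48 h after the time of 17-AAG. Wee1 inhibitor II blocks Wee1, a kinase that restrains CDK1 ahead of mitosis, and 17-AAG blocks the chaperone Hsp90. The submitters set aside control replicate 2 for weak signal, so 11 arrays were compared, 2 of them controls.

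The V-ATPase is a rotary pump that spends ATP to move protons into lysosomes, endosomes, melanosomes and secretory vesicles. Its V1 sector lies in the cytosol, splits ATP on the A and B subunits and turns a central stalk; its V0 sector lies in the membrane and carries protons between a ring of small c-type subunits and the large a subunit. Cathepsins are proteases, most of which mature in the acid lumen of the lysosome: B, C, F, H, K, L, O, S, V, W and Z are cysteine proteases, D and E aspartic proteases, and A and G serine enzymes. LAMP1 and LAMP2 are the main glycoproteins of the lysosomal membrane. TFEB is a transcription factor that enters the nucleus when the kinase mTORC1 at the lysosome is inactive, and it binds E-boxes with the core CACGTG in promoters of lysosomal genes, as do its relatives MITF and TFE3.

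Promoter stretches of 6 members are given to show where such E-boxes lie. LAMP1 holds the most of them, ATP6V0B, ATP6V1G1, CTSF and CTSD are members described below that hold at least 1, and CTSL is a member called in opposite directions that holds none. They are the 200 bases before the RefSeq start for LAMP1 and the 160 bases before it for the others, in build GRCh38.p14, written 5′ to 3′ on the strand of the gene, with each E-box in capitals. LAMP1 is chr13:113297039-113297238 on the plus strand, ATP6V0B chr1:43974800-43974959 on the plus strand, ATP6V1G1 chr9:114587609-114587768 on the plus strand, CTSF chr11:66568607-66568766 on the minus strand, CTSD chr11:1763928-1764087 on the minus strand and CTSL chr9:87725959-87726118 on the plus strand.
LAMP1: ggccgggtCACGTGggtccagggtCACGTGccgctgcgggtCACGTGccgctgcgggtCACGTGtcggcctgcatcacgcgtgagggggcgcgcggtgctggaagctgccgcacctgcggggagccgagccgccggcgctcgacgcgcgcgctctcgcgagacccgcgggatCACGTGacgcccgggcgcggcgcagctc
ATP6V0B: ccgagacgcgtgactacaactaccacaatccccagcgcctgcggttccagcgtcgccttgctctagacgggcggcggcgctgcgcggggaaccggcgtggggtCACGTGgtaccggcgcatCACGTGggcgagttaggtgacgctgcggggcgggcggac
ATP6V1G1: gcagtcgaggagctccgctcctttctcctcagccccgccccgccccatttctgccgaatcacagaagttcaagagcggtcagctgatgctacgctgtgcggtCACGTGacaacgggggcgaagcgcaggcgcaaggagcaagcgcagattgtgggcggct
CTSF: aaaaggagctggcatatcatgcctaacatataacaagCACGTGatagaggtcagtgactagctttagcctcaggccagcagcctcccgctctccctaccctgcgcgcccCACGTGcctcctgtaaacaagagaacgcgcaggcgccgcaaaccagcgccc
CTSD: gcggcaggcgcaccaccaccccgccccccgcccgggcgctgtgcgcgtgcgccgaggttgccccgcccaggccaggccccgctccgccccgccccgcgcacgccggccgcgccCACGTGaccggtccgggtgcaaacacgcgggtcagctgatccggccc
CTSL: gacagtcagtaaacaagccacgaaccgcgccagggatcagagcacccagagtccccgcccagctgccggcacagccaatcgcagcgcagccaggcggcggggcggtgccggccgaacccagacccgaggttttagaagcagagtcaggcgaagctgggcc
In the 250 bases before the start, CACGTG, which reads the same on both strands, occurred in 8 of the 27 protein-coding members found in the RefSeq promoter table (29.6%), against 1542 of 15843 protein-coding genes there (9.73%). With a T before it on either strand it occurred in 8 of these members (29.6%), against 835 of all genes (5.27%). The 8 were ATP6V0B, ATP6V0D1, ATP6V0E2, ATP6V1G1, CTSA, CTSD, CTSF and LAMP1. Such a match describes letters of the genome and was not tested against the arrays.

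The values are microarray signals on a linear scale, with about the same trimmed mean on every array as deposited by the authors, and were compared on the log2 scale. The number of arrays limits the precision. No source used here states that arrays of a group came from separate cultures, and p-values reflect the variation among these arrays, some of which can be technical. Across all probe sets, which are not independent, Pearson's r of log2 signals was 0.924 to 0.936 between replicates, 0.913 to 0.929 between groups and 0.825 to 0.833 for control replicate 2 with the other arrays. Control replicate 2 also differed in the genes it expressed. HOXB13, a homeobox gene of prostate epithelium, had a signal of 2087 there against 2.14 to 11.3 on the 11 arrays compared, and EPCAM, an epithelial adhesion molecule, 1096 against 5.33 to 26.2. Other epithelial genes of the 10 measured differed less or went the other way, with KRT18 at 2238 against 453 to 650, CDH1 at 5.55 against 1.79 to 13.2 and ESRP1 at 48.5 against 142 to 728. CTNNA1 and STAT3, which PC3 cells are known to lack through deletion, had 1.57 and 7.54 on control replicate 2 but 2559 to 5040 and 819 to 1296 on the 11 arrays. MLANA and PMEL, genes of pigment cells, had 2.67 and 2.90 on control replicate 2 and 2865 to 9916 and 3694 to 9203 on the 11. The 11 arrays therefore go against their PC3 label, and the groups are named as labelled. DNAJB1 and HSPH1, chaperone genes that Hsp90 inhibitors are known to induce, were lower in the arrays labelled 17-AAG than in control, by a log2 fold change of -1.22 ± 0.09 and -0.76 ± 0.12 (SE). The other treated groups were below control too. DNAJB1 had 685 to 754 with Wee1 inhibitor II and 874 to 908 with both drugs, against 1186 and 1197 in control. HSPH1 had 1485 to 1547 and 2637 to 2852, against 3137 and 3292.

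A gene was called where limma's p-value after Benjamini-Hochberg adjustment across the 19775 genes was under 0.05. Of the 43 members, 25 were called in at least 1 treated group against control. The matching share of all genes was not computed, so this count has no background to be read against. Both drugs against control called 15 members, 9 higher and 6 lower, where 28% of all genes were called, 16.7% higher and 11.3% lower. Wee1 inhibitor II against control called 19, 6 higher and 13 lower, against 24.9% of all genes, 14.5% higher and 10.3% lower. 17-AAG against control called 10, with 5 in each direction, against 16.7% of all genes, 9.93% higher and 6.8% lower. This last count was 2 without control replicate 1, 5 without control replicate 3, 6 without 17-AAG replicate 1 and 5 without 17-AAG replicate 3. Between treated groups, both drugs against Wee1 inhibitor II called 13 members, all 13 higher, where 14.1% of all genes were called, 7.27% higher and 6.84% lower. No member was called lower there, and 1 was lower and 21 were higher at an unadjusted p under 0.05. Both drugs against 17-AAG called 10, with 5 in each direction, against 19.3% of all genes, 10.9% higher and 8.43% lower. Wee1 inhibitor II against 17-AAG called 14, 2 higher and 12 lower, where 18.7% of all genes were called, 10.2% higher and 8.52% lower. The interaction, which is the effect of 17-AAG on top of Wee1 inhibitor II minus its effect alone, was called for 9, 7 above and 2 below 0, against 11.8% of all genes, 4.82% above and 6.97% below.

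Bright genes are called more often, so members were also read against genes of like brightness. With a mean signal of at least 64 there were 29 members, whose within-group SD had a median of 0.10 (log2), while the 14 dimmer members had a median SD of 0.60. Among these 29, both drugs against control called 12 where 49% of the genes above that signal were called, Wee1 inhibitor II against control called 16 against 43.7%, and 17-AAG against control called 9 against 30.9%. The shares of members were 41.4%, 55.2% and 31%. Both drugs against Wee1 inhibitor II called 44.8% of these members against 26.1% of bright genes, and both drugs against 17-AAG 27.6% against 33.9%. Wee1 inhibitor II against 17-AAG called 37.9% against 32.6%. The interaction was called for 27.6% of these members, near the 22% of bright genes. By direction, 12 of the 29 were lower with Wee1 inhibitor II than in control, where 20.2% of bright genes were called lower, and 13 of the 29 were higher with both drugs than with Wee1 inhibitor II, where 13.5% were called higher. The median log2 fold change of all 43 members was 0.12 for both drugs, -0.14 for Wee1 inhibitor II and 0.10 for 17-AAG against control; over all genes tested it was 0.11, 0.12 and 0.01.

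**Figure D1:**
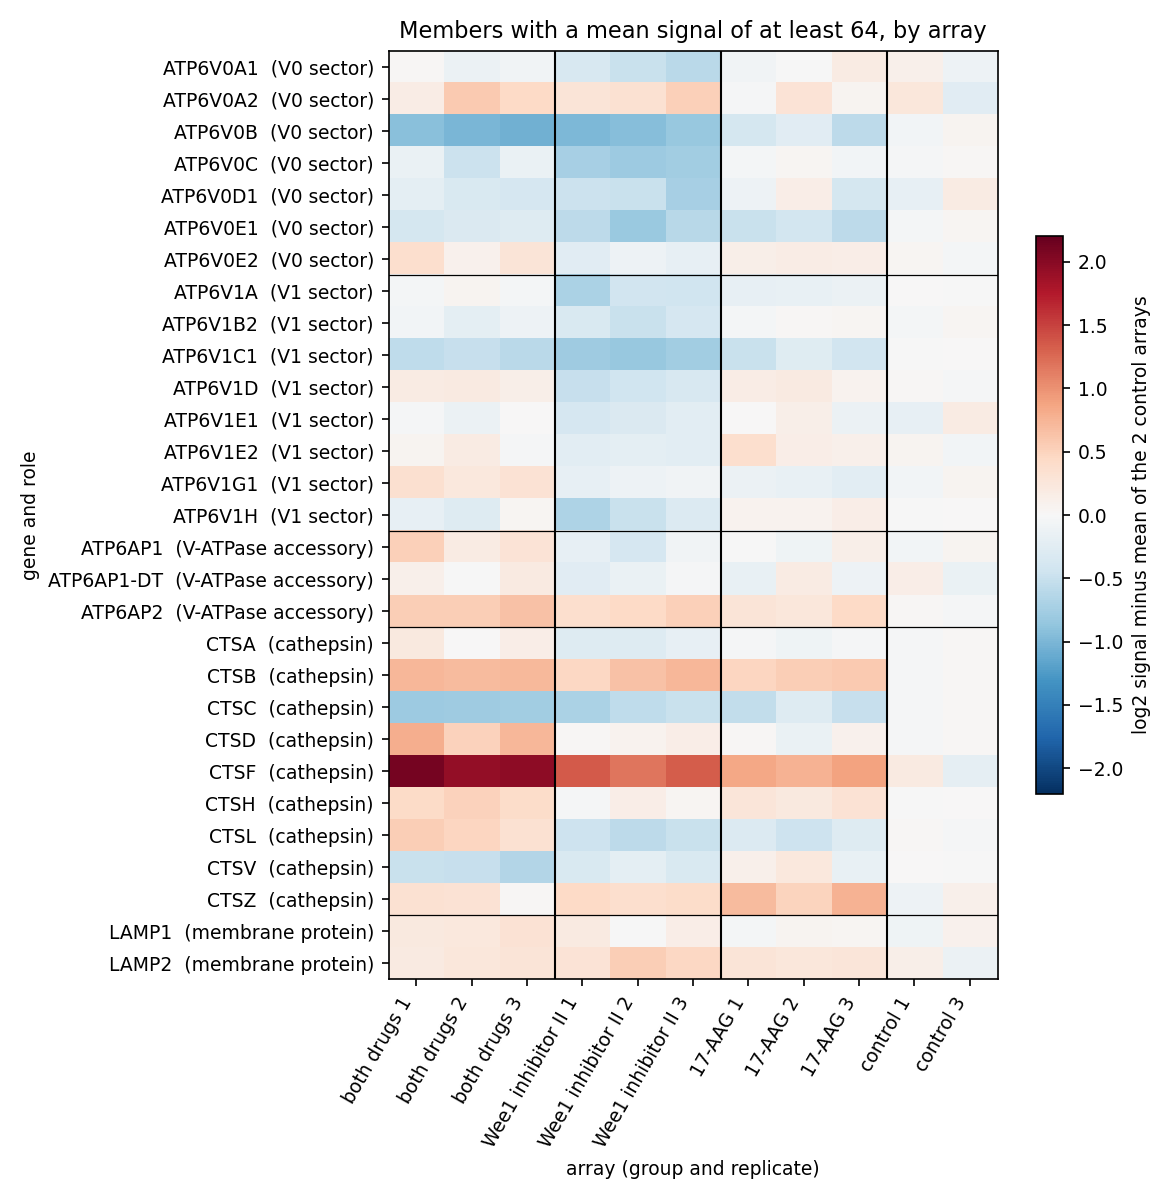
Log2 signal of each of the 29 members with a mean signal of at least 64 (down the page, grouped by role) on each of the 11 arrays (columns), minus the mean of the 2 control arrays; blue is lower and red higher than control. Most V-ATPase genes are blue in the 3 Wee1 inhibitor II columns and paler in the columns of both drugs, while CTSF is red in every treated column.

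Of 8 V0 subunit genes of the V-ATPase, 5 were called lower with Wee1 inhibitor II than in control and none higher, where 10.3% of all genes were called lower, with log2 fold changes from -0.47 to -0.92 among the called. With both drugs 2 of the 8 were called, both lower, which is 25% against 28% of all genes, and with 17-AAG 2, both lower, which is 25% against 16.7%; at an unadjusted p under 0.05 no V-ATPase subunit was higher in 17-AAG or Wee1 inhibitor II against control, and 2 were with both drugs.

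ATP6V0B encodes the c″ proteolipid of the rotor ring. It had signals of 1089, 1026 and 992 with both drugs, 1034, 1071 and 1148 with Wee1 inhibitor II and 1564, 1738 and 1384 with 17-AAG, against 1968 and 2145 in control. Each treated group lay wholly below the control arrays, and both groups given Wee1 inhibitor II lay below 17-AAG alone. The log2 fold change against control was -0.99 ± 0.11 (SE, 3 arrays against 2; adjusted p 0.000389) for both drugs and -0.92 ± 0.11 (adjusted p 0.000815) for Wee1 inhibitor II. For 17-AAG it was -0.40 ± 0.11 (adjusted p 0.0448), a call that was lost in 10 of the 11 fits that left out a single array. ATP6V0C encodes the c subunit, the main proteolipid of the ring. Its signals were 1404, 1111 and 1407 with both drugs and 938, 892 and 907 with Wee1 inhibitor II, against 1499, 1599 and 1485 with 17-AAG and 1516 and 1584 in control. The 3 arrays of Wee1 inhibitor II alone stood below every other array. The log2 fold change was -0.77 ± 0.12 for Wee1 inhibitor II against control (adjusted p 0.00211) and -0.25 ± 0.12 for both drugs, which did not pass the test.

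ATP6V0E1 encodes the small e subunit. It had 2360, 2475 and 2554 with both drugs, 2076, 1767 and 2021 with Wee1 inhibitor II and 2212, 2354 and 2090 with 17-AAG, against 2990 and 3210 in control. All 9 treated arrays were below both controls. Its log2 fold changes were -0.33 ± 0.10 (adjusted p 0.0409), -0.67 ± 0.10 (adjusted p 0.00211) and -0.48 ± 0.10 (adjusted p 0.0141) for both drugs, Wee1 inhibitor II and 17-AAG. The call for both drugs was lost in 8 of the 11 fits that left out an array, with the highest adjusted p, 0.203, without control replicate 3. That for 17-AAG was lost without control replicate 1 or 3 (0.0521 and 0.0936). ATP6V0A1, an isoform of the a subunit that forms the proton path, and ATP6V0D1, the d subunit that joins stalk and ring, were called lower with Wee1 inhibitor II alone. ATP6V0A1 had 151, 136 and 128 there against 207 and 178 in control, and its log2 fold change was -0.47 ± 0.12 (adjusted p 0.0239), with an adjusted p of 0.16 without control replicate 1 and of 0.0603 and 0.0718 without Wee1 inhibitor II replicate 2 and 3. ATP6V0D1 had 976, 969 and 817 against 1201 and 1528, and its -0.56 ± 0.18 (adjusted p 0.0492) was lost in 9 of the fits that left out an array. ATP6V0E2, another e isoform, did not pass against control in any group and had 0.25, -0.18 and 0.14. ATP6V0A2, an a isoform of endosomes and Golgi, had 0.40, 0.37 and 0.12 and passed no test. ATP6V0D2, a d isoform known from osteoclasts, was dim, at 29.5, 35.6 and 31.5 with both drugs, 43.4, 23.9 and 8.83 with Wee1 inhibitor II, 65.2, 66.4 and 83.2 with 17-AAG, and 53.9 and 71.0 in control; it was called in Wee1 inhibitor II against 17-AAG alone (-1.77 ± 0.49, adjusted p 0.0401), and 9 of the fits that left out an array lost that call.

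Of 12 V1 genes, 6 were called lower with Wee1 inhibitor II than in control and none higher, where 10.3% of all genes were called lower; 1 of the 6, ATP6V1C2, was dim. With both drugs 1 was called lower and 1 higher, which is 16.7% against 28% of all genes, and with 17-AAG 1 was called lower, which is 8.33% against 16.7%. ATP6V1C1, the C subunit that clamps V1 to V0, had 1042, 1076 and 1021 with both drugs, 887, 862 and 904 with Wee1 inhibitor II and 1093, 1270 and 1149 with 17-AAG, against 1521 and 1543 in control. The treated arrays were all below control, with Wee1 inhibitor II alone the lowest. Its log2 fold changes were -0.55 ± 0.09 (adjusted p 0.00179), -0.79 ± 0.09 (adjusted p 0.000467) and -0.39 ± 0.09 (adjusted p 0.0172); the last was lost without control replicate 1 or 3 (adjusted p 0.0791 and 0.0904) and without 17-AAG replicate 1 or 3 (0.0555 and 0.0547).

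ATP6V1A, the catalytic A subunit that splits ATP, had 2527, 2708 and 2528 with both drugs, 1607, 1949 and 1920 with Wee1 inhibitor II and 2292, 2328 and 2394 with 17-AAG, against 2621 and 2600 in control. Wee1 inhibitor II alone lay below all other arrays, while the groups of both drugs and control overlapped. Its log2 fold change was -0.52 ± 0.10 for Wee1 inhibitor II (adjusted p 0.00649) and -0.01 ± 0.10 for both drugs. ATP6V1D, a subunit of the central stalk, had 1935, 1956 and 1866 with both drugs, 1207, 1271 and 1339 with Wee1 inhibitor II and 1911, 1973 and 1802 with 17-AAG, against 1735 and 1693 in control. Only the 3 arrays of Wee1 inhibitor II were below control here, and the other treated arrays were above it. The log2 fold change was -0.43 ± 0.08 for Wee1 inhibitor II (adjusted p 0.00602), with 0.16 for both drugs and 0.14 for 17-AAG, neither of which passed.

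ATP6V1H, the regulatory H subunit, had 735, 682 and 862 with both drugs, 521, 593 and 677 with Wee1 inhibitor II and 877, 885 and 928 with 17-AAG, against 833 and 835 in control. Wee1 inhibitor II was below control (-0.49 ± 0.14, adjusted p 0.0304), but its highest array came close to the lowest array of both drugs. That call was lost without control replicate 1 or 3 (adjusted p 0.118 and 0.123) and without Wee1 inhibitor II replicate 1 or 2 (0.0776 and 0.0683). ATP6V1B2, the B subunit found in most cells, was at 1532, 1380 and 1494 with Wee1 inhibitor II against 1891 and 1991 in control (-0.40 ± 0.09, adjusted p 0.0107; 0.0744 without control replicate 3). ATP6V1G1, a peripheral stalk subunit, went the other way with both drugs, at 3550, 3289 and 3470 against 2678 and 2913 in control (0.30 ± 0.08, adjusted p 0.0266). That call was lost without control replicate 1 (adjusted p 0.166) and without replicate 1 or 3 of both drugs (0.0786 and 0.0715). With Wee1 inhibitor II it had 2457, 2591 and 2640 and with 17-AAG 2540, 2501 and 2392, and neither group was called. When each array was centred on its own median, which moved the median of all genes for both drugs against control to -0.22, the log2 fold change of ATP6V1G1 was -0.04. ATP6V1C2, a C isoform known from lung and kidney, was called lower with Wee1 inhibitor II (-2.48 ± 0.55, adjusted p 0.0118; 0.0908 without control replicate 1), but its signals were 13.6 or less on all 11 arrays and the difference was 0 when signals below 32 were set to 32. ATP6V1E1 and ATP6V1E2, isoforms of the peripheral stalk, had -0.31 and -0.22 with Wee1 inhibitor II and were not called against control. ATP6V1B1, ATP6V1G2 and ATP6V1G3, isoforms known from kidney or brain, were dim and uncalled throughout.

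**Figure D2:**
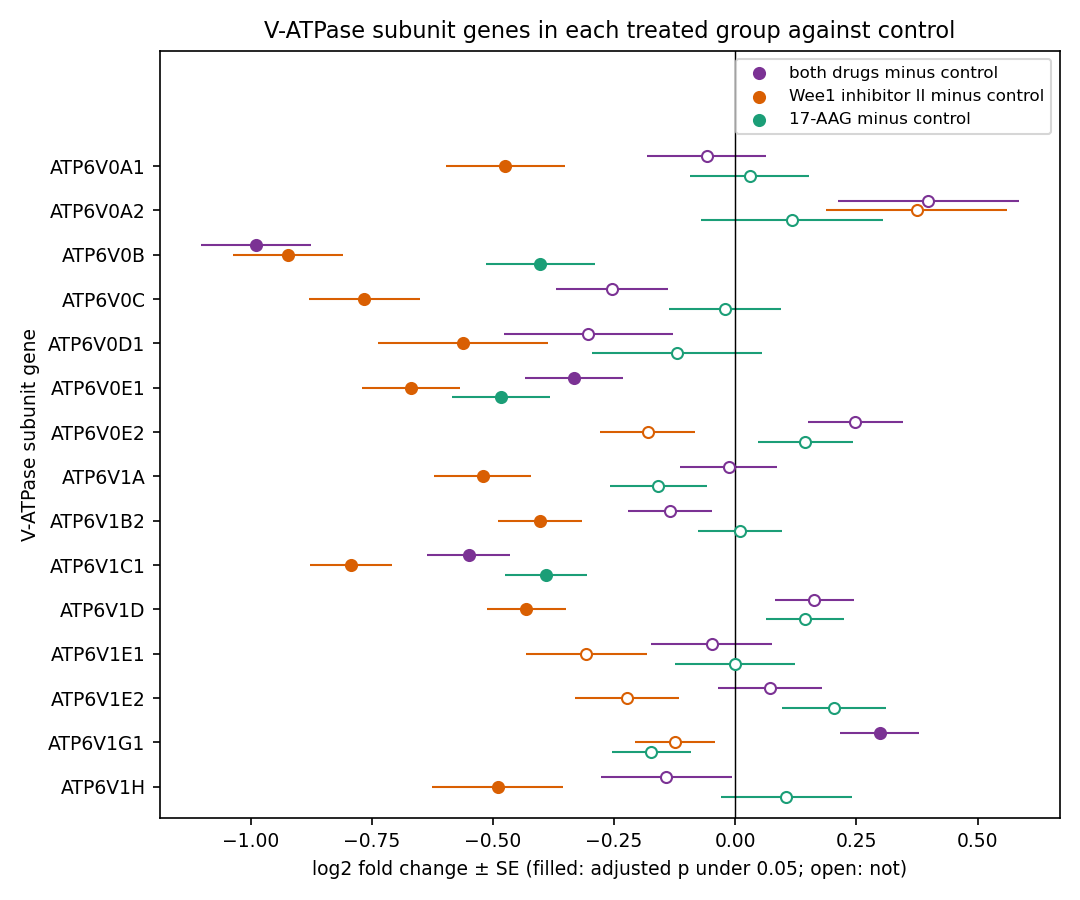
Log2 fold change against control with its SE for the 15 V-ATPase subunit genes with a mean signal of at least 64, for both drugs, Wee1 inhibitor II and 17-AAG (3 arrays each against 2 controls); filled points passed an adjusted p of 0.05. Filled orange points lie left of 0 for 10 of the 15 genes, and ATP6V1G1 has the single filled point right of 0.

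The sector counts can be put together as follows. Of 20 V-ATPase subunit genes, 11 were called lower with Wee1 inhibitor II and their median log2 fold change was -0.45, where 10.3% of all genes were called lower and the median of all genes was 0.12. With both drugs 3 were called lower and 1 higher (median -0.05), and with 17-AAG 3 were called lower (median 0.02). That is 20% and 15% of the 20, below the 28% and 16.7% of all genes. Of the 15 with a mean signal of at least 64, 10 were called lower with Wee1 inhibitor II against 20.2% of bright genes. Both drugs called 26.7% of these 15 and 17-AAG 20%, below the 49% and 30.9% of bright genes. Centring arrays on their medians lowered the values against control for all genes. The 43 members then split into 3 higher and 22 lower with Wee1 inhibitor II and 4 higher and 12 lower with both drugs. Of all 19775 genes 1426 were then called higher and 4048 lower with Wee1 inhibitor II, and 1675 and 4151 with both drugs. Control replicate 2 had ATP6V0A1 at 19.8 and ATP6V1B2 at 309, under the 128 to 218 and 1380 to 2001 of the other arrays. With it included, 5 members were called in Wee1 inhibitor II against control, and ATP6V0A1 and ATP6V1B2 stood at 0.62 and 0.48. Over all genes that comparison then gave 843 higher and 425 lower, where the main fit gave 2877 and 2045.

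Of the 4 accessory genes, 2 were called higher against control in each treated group and none lower. That is 50%, against 28%, 24.9% and 16.7% of all genes for both drugs, Wee1 inhibitor II and 17-AAG. ATP6AP2, the prorenin receptor, which helps the pump assemble, had 3965, 3973 and 4237 with both drugs, 3532, 3688 and 3899 with Wee1 inhibitor II and 3301, 3251 and 3703 with 17-AAG, against 2757 and 2686 in control. Every treated array was above both controls. Its log2 fold changes were 0.58 ± 0.09 (adjusted p 0.00188), 0.44 ± 0.09 (adjusted p 0.00834) and 0.33 ± 0.09 (adjusted p 0.0422) for both drugs, Wee1 inhibitor II and 17-AAG. The 17-AAG call was lost in 10 of the fits that left out an array, and that for Wee1 inhibitor II without control replicate 3 (adjusted p 0.0548). With arrays centred on their medians ATP6AP2 had 0.24, 0.13 and 0.21, and all 3 calls were lost. ATP6AP1L, the pseudogene, had 73.8, 75.5 and 62.7 with both drugs, 84.2, 68.2 and 60.7 with Wee1 inhibitor II and 52.3, 58.5 and 55.0 with 17-AAG, against 21.8 and 18.4 in control. The groups did not overlap with control, and the fold was 3.52 for both drugs, 3.52 for Wee1 inhibitor II and 2.76 for 17-AAG. On the log2 scale these are 1.82 ± 0.16, 1.81 ± 0.16 and 1.46 ± 0.16 (adjusted p 0.000107, 0.000194 and 0.00119), near the lower end of the measured range. When the 2 probe sets of ATP6AP1L were averaged, the calls for both drugs (1.37) and 17-AAG were lost, and that for Wee1 inhibitor II held. The 17-AAG call was also lost when only the arrays compared were fitted, a fit that called no gene at all for 17-AAG against control. ATP6AP1, an accessory glycoprotein of the V0 sector, had 1246, 984 and 1066 with both drugs, 763, 667 and 824 with Wee1 inhibitor II and 861, 807 and 944 with 17-AAG, against 833 and 900 in control; no group was called against control. ATP6AP1-DT, transcribed from the same locus, was not called in any comparison, nor was ATP6V0E2-AS1.

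Cathepsins moved in both directions. With both drugs 6 of 15 were called higher than in control and 2 lower, with Wee1 inhibitor II 3 higher and 2 lower, and with 17-AAG 3 higher and 2 lower. That is 53.3%, 33.3% and 33.3% of the cathepsins, against 28%, 24.9% and 16.7% of all genes. Of the 9 with a mean signal of at least 64, 77.8% were called with both drugs, 44.4% with Wee1 inhibitor II and 55.6% with 17-AAG, against 49%, 43.7% and 30.9% of bright genes, so that the share with Wee1 inhibitor II was near that of bright genes. The median log2 fold change of the 15 was 0.45, 0.08 and 0.27 for the 3 groups.

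CTSF, a cysteine cathepsin with a long propeptide, had the largest log2 fold change against control among members with a mean signal of at least 64. Its signals were 785, 690 and 710 with both drugs, 463, 409 and 457 with Wee1 inhibitor II and 329, 308 and 335 with 17-AAG, against 207 and 159 in control. The 4 groups did not overlap and stood in that order. Against control the fold was 4.02 for both drugs, 2.44 for Wee1 inhibitor II and 1.79 for 17-AAG, with log2 fold changes of 2.01 ± 0.13 (adjusted p 2.95e-05), 1.29 ± 0.13 (adjusted p 0.00034) and 0.84 ± 0.13 (adjusted p 0.00436). Both drugs also exceeded Wee1 inhibitor II by 0.72 ± 0.12 (adjusted p 0.00436) and 17-AAG by 1.17 ± 0.12 (adjusted p 0.000393). Its interaction was -0.12 ± 0.17, with a 95% interval of -0.52 to 0.28, and did not pass. CTSO, another cysteine cathepsin, had 96.0, 98.1 and 88.2 with both drugs, 79.4, 63.5 and 46.2 with Wee1 inhibitor II and 39.4, 38.0 and 43.0 with 17-AAG, against 31.9 and 30.4 in control. The order of the groups was the same as for CTSF, at a lower signal. CTSO was 3.02-fold higher with both drugs (1.59 ± 0.20, adjusted p 0.0006) and 1.98-fold higher with Wee1 inhibitor II (0.98 ± 0.20, adjusted p 0.00808; 0.0531 without control replicate 3), while 17-AAG at 0.36 did not pass.

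CTSB, a cysteine protease abundant in many tumours, had 4489, 4396 and 4422 with both drugs, 3717, 4233 and 4486 with Wee1 inhibitor II and 3781, 3931 and 4031 with 17-AAG, against 2672 and 2746 in control. On this brightest probe set all treated arrays were above control and the treated groups lay close together. The log2 fold changes were 0.71 ± 0.09 (adjusted p 0.000801), 0.61 ± 0.09 (adjusted p 0.0023) and 0.53 ± 0.09 (adjusted p 0.00747; 0.0514 without control replicate 1). With arrays centred on their medians the value for Wee1 inhibitor II was 0.30 and did not pass (adjusted p 0.0838). The 4 other CTSB probe sets with a mean signal of at least 64 had 0.18 to 0.63 for both drugs against 17-AAG, and 3 were called higher. For both drugs against Wee1 inhibitor II they had 0.01 to 0.54, and 1 was called higher. CTSC, the dipeptidyl peptidase that activates granule proteases, went down. It had 2249, 2290 and 2292 with both drugs, 2414, 2663 and 2797 with Wee1 inhibitor II and 2678, 3207 and 2758 with 17-AAG, against 3860 and 3970 in control. Every treated array was below control, and the log2 fold changes were -0.78 ± 0.10 (adjusted p 0.000839), -0.58 ± 0.10 (adjusted p 0.00475) and -0.45 ± 0.10 (adjusted p 0.0218). The last was lost without either control array (adjusted p 0.0886 and 0.112) and without 17-AAG replicate 1 or 3 (0.0694 and 0.069).

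CTSL, a potent endopeptidase of the lysosome, was called in opposite directions. Its signals were 1188, 1127 and 1024 with both drugs, 591, 549 and 581 with Wee1 inhibitor II and 661, 597 and 667 with 17-AAG, against 832 and 797 in control. Each drug alone lay below control, and both drugs together lay above it, with no overlap. The log2 fold changes were 0.45 ± 0.10 for both drugs (adjusted p 0.00844; 0.0592 without control replicate 3), -0.51 ± 0.10 for Wee1 inhibitor II (adjusted p 0.00594) and -0.35 ± 0.10 for 17-AAG (adjusted p 0.0421, lost in 10 of the fits that left out an array). With arrays centred on their medians the first was 0.11 and did not pass. Both drugs gave 1.94 times the signal of Wee1 inhibitor II (adjusted p 0.000218) and 1.73 times that of 17-AAG (adjusted p 0.000564).

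CTSD, the main aspartic protease of lysosomes, rose with both drugs and passed no test against control with either drug alone. It had 1090, 894 and 1047 with both drugs, 641, 666 and 695 with Wee1 inhibitor II and 644, 568 and 673 with 17-AAG, against 621 and 639 in control. The arrays of both drugs stood above all others, and the other 3 groups lay together. The log2 fold change was 0.68 ± 0.11 for both drugs (adjusted p 0.00273), against 0.08 for Wee1 inhibitor II and -0.01 for 17-AAG, with 95% intervals of -0.18 to 0.35 and -0.27 to 0.26. With arrays centred on their medians the value for both drugs was 0.34 and did not pass (adjusted p 0.0698). Both drugs exceeded Wee1 inhibitor II by 0.59 ± 0.10 (adjusted p 0.0061) and 17-AAG by 0.68 ± 0.10 (adjusted p 0.00275). CTSH, an aminopeptidase, had 586, 628 and 584 with both drugs against 437 and 443 in control (0.44 ± 0.09, adjusted p 0.00509), a call lost with median centring (0.11). Its 430, 487 and 453 with Wee1 inhibitor II overlapped control, and its 531, 511 and 551 with 17-AAG were above control without a call.

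CTSZ, a carboxypeptidase, had 1411, 1384 and 1132 with both drugs, 1514, 1445 and 1467 with Wee1 inhibitor II and 1809, 1562 and 1898 with 17-AAG, against 1034 and 1202 in control. The 17-AAG arrays were the highest, and both drugs overlapped control. It rose with 17-AAG (0.65 ± 0.13, adjusted p 0.013; 0.0956 without control replicate 1), and the 0.40 of Wee1 inhibitor II did not pass. CTSV, a close relative of CTSL known from thymus and skin, was lower with both drugs, at 351, 346 and 314 against 496 and 491 in control. Its log2 fold change was -0.55 ± 0.12 (adjusted p 0.0107), with adjusted p 0.0588 and 0.0554 without control replicate 1 and 3. CTSA, the carboxypeptidase that protects beta-galactosidase and neuraminidase, was not called against control. CTSE, CTSG, CTSK, CTSS and CTSW, known from stomach, granulocytes, osteoclasts, antigen-presenting cells and lymphocytes, had mean signals under 64 and were not called in any comparison.

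**Figure D3:**
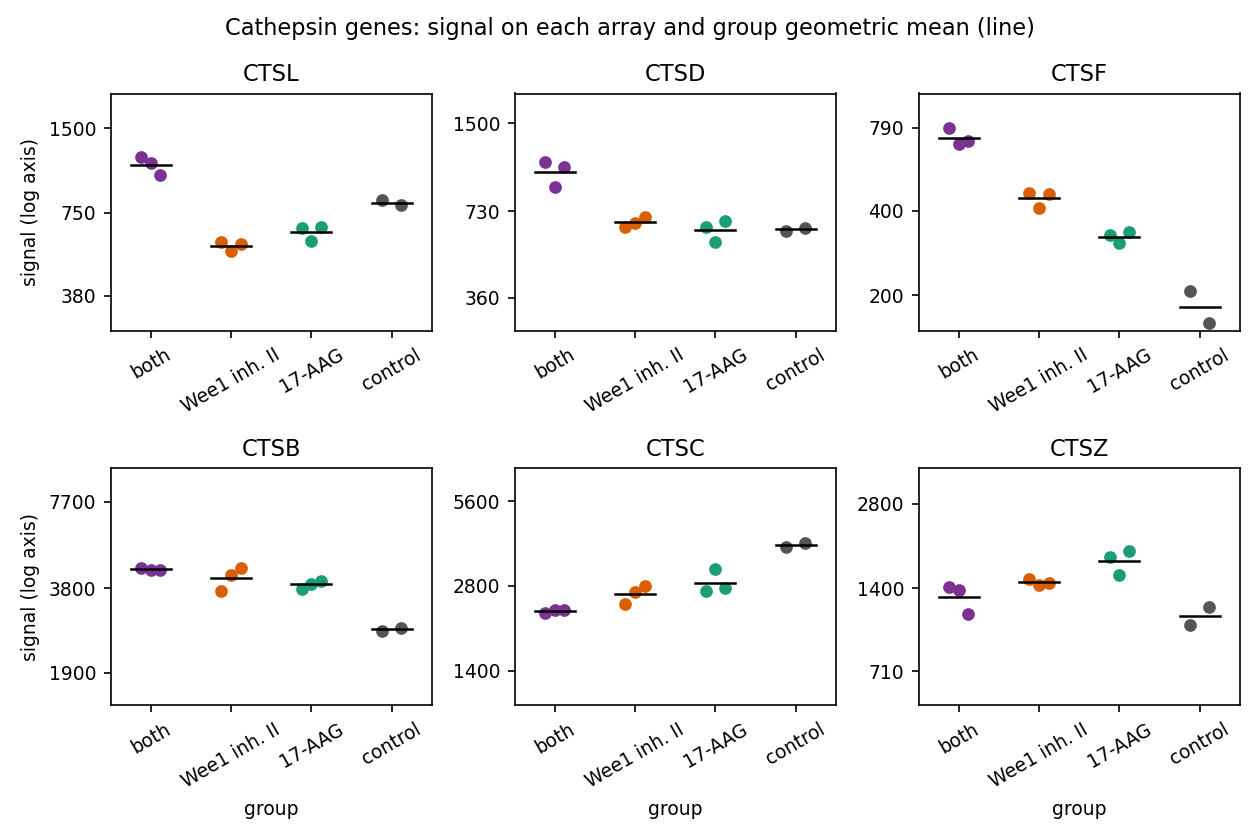
Signal of 6 cathepsin genes on each of the 11 arrays by group, on log axes, with a line at the geometric mean of each group (3 arrays with both drugs, Wee1 inhibitor II or 17-AAG, 2 in control). CTSL is above control with both drugs and below it with either drug, CTSD is high with both drugs, and CTSF is ordered from both drugs to control.

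Of the lysosomal membrane genes, LAMP1 passed no test against control and LAMP2 differed between its probe sets. LAMP1 had 6644, 6712 and 7099 with both drugs, 6546, 5695 and 6327 with Wee1 inhibitor II and 5528, 5977 and 5896 with 17-AAG, against 5342 and 6082 in control. The single-drug groups overlapped control, and the log2 fold changes of 0.26, 0.12 and 0.02 did not pass, with 95% intervals of 0.03 to 0.48, -0.11 to 0.34 and -0.20 to 0.25. LAMP2, which also serves chaperone-mediated autophagy, had 2470, 2566 and 2616 with both drugs, 2669, 3135 and 2967 with Wee1 inhibitor II and 2634, 2575 and 2593 with 17-AAG, against 2348 and 1978 in control. Every treated array was above control, and on this brightest probe set Wee1 inhibitor II passed (0.44 ± 0.10, adjusted p 0.0161), while both drugs (0.24) and 17-AAG (0.27) did not. The call was lost without control replicate 3 (0.31, adjusted p 0.122) and with arrays centred on their medians (0.12). The 3 other LAMP2 probe sets with a mean signal of at least 64 were all called higher with both drugs (0.51 to 1.04) and with Wee1 inhibitor II (0.62 to 0.84), and none was called with 17-AAG (-0.12 to 0.31). For both drugs against 17-AAG they had 0.61 to 0.74, where the brightest had -0.03.

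TFEB was dim and lower with both drugs. Its signals were 53.2, 41.4 and 47.0 with both drugs, 55.1, 49.8 and 52.7 with Wee1 inhibitor II and 82.8, 80.1 and 91.3 with 17-AAG, against 69.1 and 67.1 in control. The groups given Wee1 inhibitor II lay below control and 17-AAG above it. Both drugs differed from control by -0.54 ± 0.12 (adjusted p 0.0105; 0.063 without control replicate 1) and from 17-AAG by -0.85 ± 0.11 (adjusted p 0.00118). Wee1 inhibitor II differed from 17-AAG by -0.69 ± 0.11 (adjusted p 0.00302), while its -0.38 against control missed the threshold at an adjusted p of 0.0525. MITF, the relative of TFEB that drives pigment genes, followed another order. It had 7118, 6941 and 7219 with both drugs, 3059, 2455 and 2652 with Wee1 inhibitor II and 5755, 6708 and 6033 with 17-AAG, against 4433 and 4828 in control. Wee1 inhibitor II alone was below control (-0.77 ± 0.12, adjusted p 0.00198), and both drugs (0.62 ± 0.12, adjusted p 0.00444) and 17-AAG (0.41 ± 0.12, adjusted p 0.0437) were above it. TFE3 rose with Wee1 inhibitor II (0.72 ± 0.22, adjusted p 0.0491) and had 0.25 with both drugs and 0.14 with 17-AAG.

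Pigment cell markers moved with these groups. Of 15 measured pigment genes, 2 were called higher and 9 lower with Wee1 inhibitor II against control, 11 higher and 2 lower with both drugs, and 10 higher and none lower with 17-AAG (1 lower at an unadjusted p under 0.05). In that order these are 73.3%, 86.7% and 66.7% of the list, against 24.9%, 28% and 16.7% of all genes. Of bright genes 43.7%, 49% and 30.9% were called. The pigment genes summed to 65849 to 66732 with both drugs and 36698 to 40668 with Wee1 inhibitor II. With 17-AAG they summed to 58215 to 63861, against 45387 to 48188 in control. Fewer cells of a kind and less RNA per cell cannot be told apart in such bulk samples, and the part of these genes in the V-ATPase and cathepsin results was not tested. Macrophage and other blood cell markers, of which 11 were measured, summed to 131 to 177 on the 11 arrays and gave no limma call in any of the 7 comparisons, with at most 1 gene at an unadjusted p under 0.05. Of 5 osteoclast markers limma called none, with at most 2 at an unadjusted p under 0.05. The fibroblast list of 8 gave LUM as its only call against control in each group. The call was lower with both drugs and with Wee1 inhibitor II and higher with 17-AAG. These 8 genes summed to 795 to 863 with both drugs, 440 to 506 with Wee1 inhibitor II and 1801 to 1943 with 17-AAG, against 1099 to 1248 in control. Their part in the members' results was not tested. The 10 prostate and epithelial genes summed to 1338 to 1455 with both drugs, 759 to 909 with Wee1 inhibitor II and 911 to 956 with 17-AAG, against 863 to 909 in control. Of them ESRP1, a splicing factor of epithelia, was called higher with both drugs (1.21 ± 0.19) and lower with Wee1 inhibitor II (-0.81 ± 0.19), and its part in the members' results was not tested. The log2 gap between the 3′ and 5′ probe sets of array control genes is a sign of RNA or labelling quality. For ACTB it was 0.96 ± 0.05 with both drugs, 0.68 ± 0.09 with Wee1 inhibitor II and 0.96 ± 0.08 with 17-AAG, against 0.69 ± 0.03 in control (SD). For GAPDH it was -0.01, -0.05 and -0.04 in these groups, against -0.06 in control. The part of this gap was not tested either.

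Adding 17-AAG to Wee1 inhibitor II was set against Wee1 inhibitor II alone. All 13 called members were higher with both drugs: 7 V-ATPase subunit genes, ATP6AP1 and 5 cathepsins. CTSL had the largest log2 difference (0.95 ± 0.09), followed by CTSF (0.72), and by ATP6V1D (0.59 ± 0.07, adjusted p 0.00115) and CTSD (0.59), which were equal to 2 decimals. The V-ATPase subunit genes were ATP6V0A1 (0.41), ATP6V0C (0.51), ATP6V0E1 (0.34), ATP6V0E2 (0.43), ATP6V1A (0.51), ATP6V1D and ATP6V1G1 (0.42). Of these calls, that of ATP6V0E1 was lost in 10 and that of ATP6V0A1 in 7 of the fits that left out an array. ATP6AP1 was higher by 0.55 ± 0.12 (adjusted p 0.02) and CTSA by 0.37 ± 0.08 (adjusted p 0.0143). ATP6V0B, by contrast, had -0.07 and ATP6AP2 0.13, and neither passed. The 20 subunit genes had a median of 0.32, where the median of all genes was 0.00. The count of 13 fell to 7 without replicate 1 or replicate 3 of both drugs.

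Set against 17-AAG alone, both drugs had 5 members higher (CTSO, CTSF, CTSL, CTSD and ATP6V1G1) and 5 lower (TFEB, CTSV, ATP6V0B, CTSZ and CTSC). CTSO had the largest difference, at 2.34-fold (1.23 ± 0.18, adjusted p 0.0023), and TFEB the largest fall. Of the 20 subunit genes 1 was higher and 1 lower, where 19.3% of all genes were called. ATP6V0B was lower by a log2 difference of -0.59 ± 0.10 (adjusted p 0.00521) and ATP6V1G1 higher by 0.47 ± 0.07 (adjusted p 0.00324), a call lost with median centring (0.25). The falls of CTSC (-0.34) and CTSZ (-0.43) were each lost in 8 of the fits that left out an array.

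The single drugs were set against each other, Wee1 inhibitor II over 17-AAG. Of the 20 subunit genes 11 were lower with Wee1 inhibitor II and none higher, with a median of -0.42, where 8.52% of all genes were called lower. Of the 15 with a mean signal of at least 64, 10 were lower, where 16.3% of such genes were. The called subunit genes were ATP6V0A1, ATP6V0B, ATP6V0C, ATP6V0D2, ATP6V0E2, ATP6V1A, ATP6V1B2, ATP6V1C1, ATP6V1D, ATP6V1E2 and ATP6V1H. ATP6V0C was lower by -0.74 ± 0.10 (adjusted p 0.00186), ATP6V1H by -0.59 ± 0.12 (adjusted p 0.0107) and ATP6V1D by -0.58 ± 0.07 (adjusted p 0.00118). CTSF (0.45 ± 0.12, adjusted p 0.0287) and CTSO (0.62 ± 0.18, adjusted p 0.0446) were the members called higher with Wee1 inhibitor II, and these calls were lost in 5 and 10 of the fits that left out an array and with arrays centred on their medians (0.26 and 0.42). The count of 14 members was 8 without 17-AAG replicate 1, 9 without 17-AAG replicate 2 and 9 without Wee1 inhibitor II replicate 1. These comparisons share arrays with those against control, so their counts are not independent of them.

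The interaction asks whether the difference made by 17-AAG depended on Wee1 inhibitor II. It was above 0 for CTSL (1.30 ± 0.13, adjusted p 0.0013), ATP6V0E1 (0.82 ± 0.14, adjusted p 0.00799), ATP6V1A (0.67 ± 0.13, adjusted p 0.0177), ATP6V1C1 (0.63 ± 0.11, adjusted p 0.0115), CTSD (0.60 ± 0.15, adjusted p 0.0409), ATP6V1G1 (0.60 ± 0.11, adjusted p 0.0122) and ATP6V1D (0.45 ± 0.11, adjusted p 0.0346). For CTSL, 17-AAG on top of Wee1 inhibitor II gave 0.95 and 17-AAG alone -0.35, each against the matching group without it. ATP6V0E1 likewise had 0.34 on top of Wee1 inhibitor II, the call lost in 10 fits, and -0.48 alone. The interaction was below 0 for ATP6AP1L (-1.46 ± 0.21, adjusted p 0.00495) and CTSZ (-0.83 ± 0.18, adjusted p 0.0224). ATP6AP1L had 0.00 on top of Wee1 inhibitor II and 1.46 alone, and CTSZ had -0.18 and 0.65. The interaction call of ATP6AP1L was lost when its probe sets were averaged. Of the 20 subunit genes 5 were called above 0 and none below, with a median of 0.36 against -0.03 over all genes. Of all genes 4.82% were called above 0 and 6.97% below. Of the 15 subunit genes with a mean signal of at least 64, 5 were called above 0. Of 9354 genes above that signal 854 were called above 0 and 1205 below. Without control replicate 1 or 3 the count of 9 members was 5, and the calls of CTSD and ATP6V1D were lost in 10 and 9 of the fits that left out an array. That of ATP6V1A was lost without control replicate 1 or 3 (adjusted p 0.0615 and 0.0583) and that of ATP6V1G1 without control replicate 3 (0.052). That of CTSZ was lost in 5 of these fits, without control replicate 1 (0.0869), Wee1 inhibitor II replicate 1 or 3 (0.0515 and 0.0503) and 17-AAG replicate 1 or 3 (0.056 and 0.0529).

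**Figure D4:**
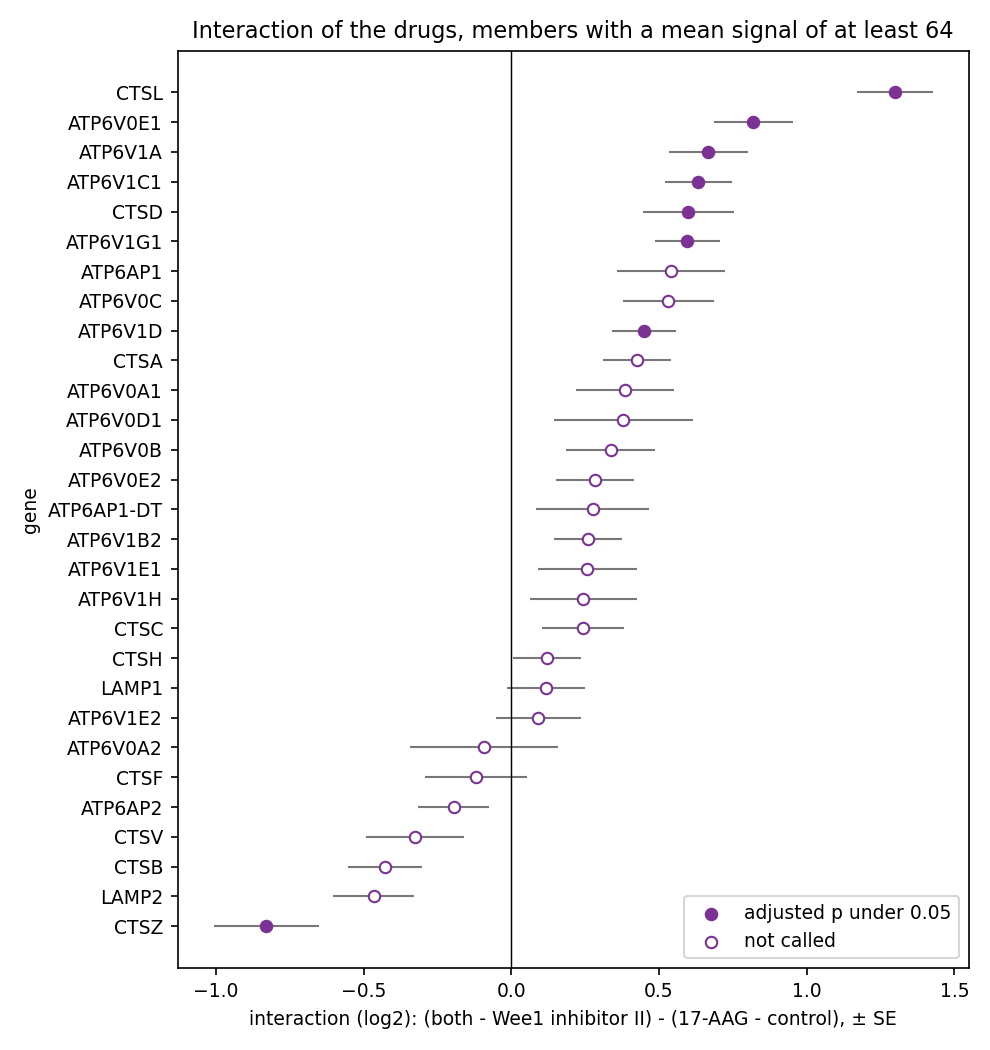
Log2 interaction term with its SE for the 29 members with a mean signal of at least 64, ordered by size; filled points passed an adjusted p of 0.05. CTSL is highest at 1.30, CTSZ is lowest at -0.83, and 7 filled points lie above 0.

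Members measured by further probe sets with a mean signal of at least 64 were compared across them. For Wee1 inhibitor II against control, 9 called members had 21 such probe sets, all 21 with the same sign and 19 with a call of their own. For both drugs against control 14 of 15 had the same sign and 9 a call, and for 17-AAG 14 of 14 and 4. For both drugs against Wee1 inhibitor II, 9 of 9 had the same sign and 2 a call, and for both drugs against 17-AAG 3 of 4 and 1. Wee1 inhibitor II against 17-AAG gave 7 of 7 and 6, and the interaction 10 of 10 and 4. The exceptions in sign were in CTSC, where 1 probe set had 0.14 for both drugs against control and 0.37 for both drugs against 17-AAG. In ATP6V0A2, which was not called, the next probe set had -0.25 for Wee1 inhibitor II against control where the brightest had 0.37. For ATP6V1E2 the next probe set had -0.92 (adjusted p 0.00964), where the brightest had -0.22 without a call.

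**Figure D5:**
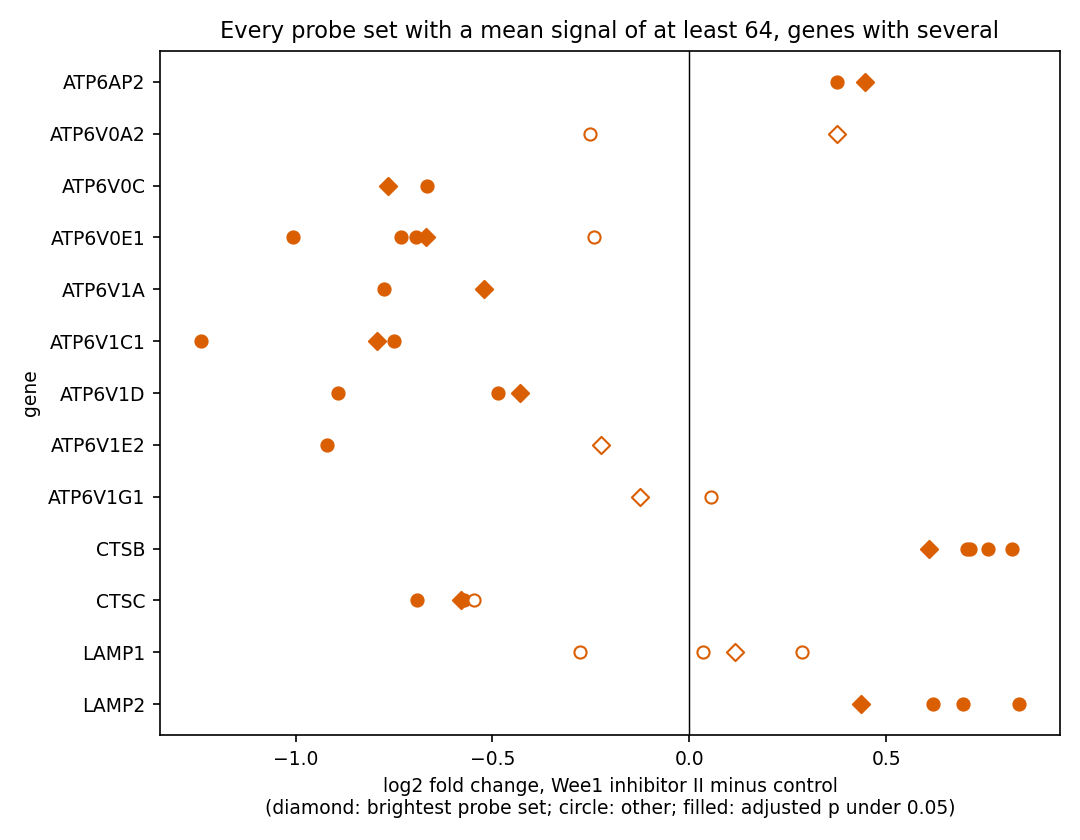
Log2 fold change of Wee1 inhibitor II against control for every probe set with a mean signal of at least 64, in the 13 members with several; diamonds are the brightest probe set, circles the others, and filled symbols passed an adjusted p of 0.05. ATP6V0E1, ATP6V1C1 and ATP6V1D lie left of 0 on every probe set, and CTSB and LAMP2 right of it.

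Other lysosomal genes were counted from lists chosen for their function. Of 30 measured lysosomal hydrolases, 17 were called higher and 1 lower with both drugs, 10 and 3 with Wee1 inhibitor II, and 6 and 1 with 17-AAG. That is 60%, 43.3% and 23.3% of the list, against 28%, 24.9% and 16.7% of all genes and 49%, 43.7% and 30.9% of bright genes. GAA, the acid glucosidase that degrades glycogen, had 3.73 times the control signal with both drugs (adjusted p 2.41e-05), 2.98 times with Wee1 inhibitor II and 1.66 times with 17-AAG. SGSH, the heparan sulfamidase, rose 3.14-fold with both drugs, and GGH, which trims folate polyglutamates, fell to 0.456 of control. Of 25 lysosomal membrane proteins and cofactors, 9 were called higher and 3 lower with both drugs, 4 and 10 with Wee1 inhibitor II, and 4 and 3 with 17-AAG, which is 48%, 56% and 28%. CLN3 (-1.12 ± 0.12) and OSTM1 (-0.78 ± 0.08), a partner of the lysosomal chloride exchanger, fell with Wee1 inhibitor II, and SIDT2 rose (0.99 ± 0.11).

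The remaining lists are set against the same shares of all and of bright genes. Of 13 genes of the mannose 6-phosphate route, 1 was called higher and 3 lower with both drugs, none higher and 4 lower with Wee1 inhibitor II (1 and 6 at an unadjusted p under 0.05), and 3 higher and 1 lower with 17-AAG, which is 30.8% in each group. GNPTAB, which makes the sorting tag, was lower with Wee1 inhibitor II (-0.84 ± 0.07) and higher with 17-AAG (0.52 ± 0.07), and the receptor M6PR was lower with each (-1.02 ± 0.11 and -0.68 ± 0.11). Of 23 TFEB relatives and mTORC1 genes, 6 were higher and 3 lower with both drugs, 3 and 5 with Wee1 inhibitor II, and 3 and 1 with 17-AAG, which is 39.1%, 34.8% and 17.4%. FNIP2, a folliculin partner, fell with Wee1 inhibitor II (-1.62 ± 0.10). Of 12 cystatins and other cathepsin inhibitors, 3 were called higher with both drugs, 3 with Wee1 inhibitor II and 2 with 17-AAG, and none lower, also at an unadjusted p under 0.05; the shares were 25%, 25% and 16.7%. SERPINA3, which inhibits cathepsin G, had mean signals of 309, 1333 and 169 in these groups against 52.9 in control. Of 8 assembly partners of the pump, 3 were higher with both drugs, 1 higher and 1 lower with Wee1 inhibitor II, and 1 higher with 17-AAG, which is 37.5%, 25% and 12.5%. DMXL1 and DMXL2, of the RAVE-like complex that joins V1 to V0, each rose 1.52-fold with both drugs, and VMA21, which helps build V0, fell with Wee1 inhibitor II (-0.42 ± 0.09, adjusted p 0.0102).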

How the data were processed

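RNA of 12 samples was hybridised to single-colour Affymetrix arrays. The deposited values are linear signal intensity per probe set; RMA and Partek 6.5 appear in the submitters' processing notes, but each array has a trimmed mean near 150 and the values span 0.0212 to 17908, and the order of steps is not given in the sources used here. They were used as deposited, on the log2 scale. Of 54675 probe sets, 41091 carried 1 gene symbol in the platform annotation; each gene was represented by its brightest such probe set (mean of 11 arrays), giving 19775 genes. limma 3.58.1 in R 4.3.3 fitted 4 group means, with Benjamini-Hochberg adjustment over all genes and a threshold of 0.05. The fitting was tested on simulated data. Same-numbered arrays did not deviate together (r -0.119 to 0.081 over 15 pairs), so replicate numbers were not used as a block. Alternatives were each array left out, control replicate 2 included, other scalings, filters, probe-set rules and variance models. Every member is described by role, with values on each array for LAMP1, LAMP2, TFEB and the called members with the largest changes. The members and lists were chosen with earlier results of these data known. Promoters are from RefSeq, GRCh38.p14.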

Additional observations from a re-analysis of the deposited data

Results flagged for a closer look

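For 9 members the effect of 17-AAG differed between cells with and without Wee1 inhibitor II by limma's interaction term. The log2 difference was 1.30 for CTSL, 0.82 for ATP6V0E1, 0.67 for ATP6V1A, 0.63 for ATP6V1C1, 0.60 for CTSD, 0.60 for ATP6V1G1 and 0.45 for ATP6V1D. It was -1.46 for ATP6AP1L and -0.83 for CTSZ. Control replicate 2, which the comparisons do not use, had a CTSO signal of 142, where the other control arrays had 31.9 and 30.4 and the highest of the 11 arrays had 98.1.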

How the results depend on the processing

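Of 90 calls of a member in a comparison, 49 held without each single array, 41 were lost without at least 1, and 80 were lost with control replicate 2 included. With it included, limma called 3, 5 and 1 members for both drugs, Wee1 inhibitor II and 17-AAG against control, 0 for both drugs against Wee1 inhibitor II (10 at an unadjusted p under 0.05), 1 for both drugs against 17-AAG, 0 for Wee1 inhibitor II against 17-AAG (5 unadjusted) and 0 for the interaction (9 unadjusted). Over all genes the calls fell too, to 1130 higher and 726 lower for both drugs against control, from 3306 and 2233. They fell to 843 and 425 for Wee1 inhibitor II, from 2877 and 2045, and to 313 and 167 for 17-AAG, from 1964 and 1345. Both drugs against Wee1 inhibitor II fell to 143 and 246, from 1438 and 1353. The interaction fell to 28 above and 91 below 0, from 953 and 1378. Including control replicate 2 turned ATP6V0A1, ATP6V1B2 and ATP6V1H with Wee1 inhibitor II to 0.62, 0.48 and 0.014. It turned CTSC with 17-AAG to 0.12 and the interaction of CTSD to -0.033. Fitting only the arrays compared gave 7 members for Wee1 inhibitor II and 0 for 17-AAG against control (12 unadjusted). It gave 6 for Wee1 inhibitor II against 17-AAG and 6 where both drugs were set against Wee1 inhibitor II. In this setting none of the 19775 genes was called for 17-AAG against control. Wee1 inhibitor II against control called 1547 of all genes higher and 914 lower, where the main fit called 2877 and 2045. Wee1 inhibitor II against 17-AAG called 1225 and 1082 of all genes, from 2011 and 1685. Both drugs against Wee1 inhibitor II called 940 and 993, from 1438 and 1353. With the replicate block 17-AAG against control gave 6 members. Averaging all probe sets of a gene gave 5 for it and 5 for the interaction, which gave 15 without the dimmest 40% of genes and 14 with trended, robust variances. Centring arrays on medians turned ATP6V1G1 with both drugs to -0.039. The members called split into 4 higher and 10 lower for both drugs against 17-AAG and 0 and 21 for Wee1 inhibitor II against 17-AAG. Calls over all genes then split into 952 higher and 2953 lower in the first of these comparisons and 991 and 2785 in the second. Setting signals below 32 to 32 left ATP6V1C2 with Wee1 inhibitor II at 0. Leaving out 1 array gave 12 to 17, 14 to 19 and 2 to 9 members against control for both drugs, Wee1 inhibitor II and 17-AAG, 7 to 13 for both drugs against Wee1 inhibitor II, 8 to 10 for both drugs against 17-AAG, 8 to 12 for Wee1 inhibitor II against 17-AAG and 5 to 11 for the interaction. Why these values moved was not tested.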
